A study of Mus musculus with 6 samples.

Results

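The genes described here encode enzymes that make prostaglandins, thromboxane and leukotrienes, measured in alveolar macrophages that carried or lacked a Cre recombinase acting on Car4. The 10 genes were chosen by name, as the rows Pla2g4a, Ptgs1, Ptgs2, Ptges, Hpgds, Tbxas1, Alox5, Alox5ap, Lta4h and Ltc4s of a table of 46078 genes, and all 10 passed the filter on low counts that left 15147 genes for testing. The cells, which reside in the airspaces of the lung, were sorted from untreated mice, and polyadenylated RNA was sequenced. The control group held 3 Car4fl/fl mice, whose Car4 alleles, encoding carbonic anhydrase 4, are flanked by loxP sites. The Cre group held 3 Car4fl/fl-CD11cCre mice, which carried the same floxed alleles and a Cre recombinase under CD11c, an integrin chain encoded by Itgax that dendritic cells carry as well. There was no group of mice with the transgene and intact Car4, so the transgene's own effect and the loss of Car4 cannot be told apart. The labels used here state no age.

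Eicosanoids are short-lived lipid mediators made from arachidonic acid, which phospholipase A2 enzymes such as cytosolic phospholipase A2 (Pla2g4a) release from membranes. The cyclooxygenases (Ptgs1 and Ptgs2) turn it into prostaglandin H2, from which terminal synthases make prostaglandin E2 (Ptges), prostaglandin D2 (Hpgds) or thromboxane A2 (Tbxas1). Alternatively 5-lipoxygenase (Alox5), helped by its activating protein (Alox5ap), makes leukotriene A4, which is converted to leukotriene B4 by Lta4h or to leukotriene C4 by Ltc4s. Alveolar macrophages are known as a strong source of leukotrienes and thromboxane in the lung.

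The RefSeq promoter table for GRCm38.p6 held windows of 300 bases for 9 of the 10 genes, all except Alox5ap. Pla2g4a had 2 windows, and a match in either was counted. Each window runs from 250 bases before the annotated start to 50 after it. The windows of the cyclooxygenase pair are shown because these genes had the largest fold changes of the 10 and differ in which motifs they hold, and those of Hpgds and Alox5 because their libraries separated the groups in opposite directions. Capitals mark matches, on either strand, to any of 7 motifs: TATAAA (the promoter element named TATA box), CACGTG (E-box), TGACGT (the core of a cyclic AMP response element), TGANTCA (AP-1), GAGGAA (the core bound by PU.1, a lineage factor of macrophages), GGGCGG (GC box) and TTGCNNAA (C/EBP). The Ptgs1 window lies at chr2:36230176-36230475 (plus strand), that of Ptgs2 at chr1:150099781-150100080 (plus strand), that of Hpgds at chr6:65144681-65144980 (minus strand) and that of Alox5 at chr6:116461129-116461428 (minus strand).
Ptgs1: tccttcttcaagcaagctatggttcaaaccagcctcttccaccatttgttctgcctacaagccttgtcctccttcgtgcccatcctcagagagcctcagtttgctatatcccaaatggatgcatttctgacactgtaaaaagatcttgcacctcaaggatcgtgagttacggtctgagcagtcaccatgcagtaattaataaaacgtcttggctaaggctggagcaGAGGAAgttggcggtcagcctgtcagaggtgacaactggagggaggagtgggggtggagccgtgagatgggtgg
Ptgs2: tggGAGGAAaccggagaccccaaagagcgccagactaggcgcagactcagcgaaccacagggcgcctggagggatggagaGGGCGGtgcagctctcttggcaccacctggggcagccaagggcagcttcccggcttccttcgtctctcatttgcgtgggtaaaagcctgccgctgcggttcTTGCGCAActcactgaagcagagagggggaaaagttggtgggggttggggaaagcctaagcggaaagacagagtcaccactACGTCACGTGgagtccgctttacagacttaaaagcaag
Hpgds: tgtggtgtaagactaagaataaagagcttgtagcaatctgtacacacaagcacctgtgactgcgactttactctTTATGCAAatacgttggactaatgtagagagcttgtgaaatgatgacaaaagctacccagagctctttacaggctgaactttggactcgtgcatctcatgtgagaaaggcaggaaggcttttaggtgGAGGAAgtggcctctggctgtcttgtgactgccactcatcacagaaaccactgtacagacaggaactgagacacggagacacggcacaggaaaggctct
Alox5: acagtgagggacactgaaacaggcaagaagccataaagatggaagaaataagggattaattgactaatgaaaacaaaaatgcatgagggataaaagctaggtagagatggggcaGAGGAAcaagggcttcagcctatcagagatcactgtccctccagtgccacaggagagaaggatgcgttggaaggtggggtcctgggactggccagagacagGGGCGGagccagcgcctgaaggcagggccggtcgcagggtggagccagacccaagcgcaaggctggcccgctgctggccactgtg

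The Ptgs1 window held a single match, the PU.1 core 24 bases before the start. The Ptgs2 window matched the C/EBP motif 69 bases before the annotated start, the GC box 170 and the PU.1 core 247 bases before it. Just after the annotated start this window held an E-box that overlaps the core of a cyclic AMP response element. In the Hpgds window the PU.1 core lay 49 bases before the start, and a C/EBP match 176 bases before it, and the Alox5 window held a PU.1 core at 136 and a GC box at 35 bases before the start. The PU.1 core was present for 8 of the 9 genes with a window, all except Pla2g4a, against 28.3% of the 32851 windows in the table. The E-box and the cyclic AMP response core each occurred in Ptgs2 alone among the 9 genes, against 7.15% and 7.51% of all windows. The GC box was in 3 of the 9 genes against 35.7%, the C/EBP motif in 2 against 10.8%, the TATA box in 2 against 13.6% and AP-1 in 1 against 7.81%. The TATA box match of Pla2g4a lay only in its second window, on the reverse strand 200 bases before the start. These are matches of letters and do not show that a factor binds.

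Counts in genes totalled 53824475 in the smallest library and 65443314 in the largest. Levels are in CPM, meaning counts divided by the TMM-adjusted library total, libraries are listed as 1, 2 and 3 of each group, and log2 fold changes are Cre over control. Car4 was lower in the Cre libraries, at 41.1 ± 5.37 CPM against 385 ± 114 CPM in the controls (SD, n = 3 each; log2 fold change -3.23 ± 0.22 SE, adjusted p 0.0047, edgeR quasi-likelihood test with Benjamini-Hochberg adjustment). Without control library 2 the adjusted p of Car4 was 0.0549, and with robust dispersions 0.0719. All 15 alveolar macrophage markers were tested and detected, and their summed level was 23424 to 26805 CPM in the controls and 28653 to 42511 CPM in the Cre libraries. Chil3 alone held 14423 to 17834 CPM against 18927 to 32961 CPM, and the other 14 markers summed to 8972 to 9581 CPM against 9549 to 9726 CPM. Among them Siglecf was lower in every Cre library (464 to 592 CPM against 663 to 752 CPM) and Marco higher (393 to 505 CPM against 280.1 to 311 CPM). At an unadjusted p under 0.05 (edgeR) the list of 15 had 5 genes on the higher side and 4 on the lower, Car4 included. Of all tested genes 6.54% were higher and 6.28% lower at that threshold. Cre library 1 weighed on the calls: without it edgeR called 249 genes higher and 37 lower, against 1 and 1 with it. Without control library 3 it called 15 higher and 52 lower.

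The control macrophages were rich in transcripts of the leukotriene arm and held fewer of the cyclooxygenases. Per kilobase of exon, Alox5ap led with 257 ± 7.28 CPM per kilobase, above 99.1% of the tested genes with a known length. Alox5 followed at 127 ± 7.87 and Ltc4s at 84.3 ± 7.56 CPM per kilobase (SD, n = 3). Lta4h, at 26.4 ± 1.00, and Tbxas1, at 23.7 ± 1.79 CPM per kilobase, were next, and Pla2g4a was at 11.9 ± 0.97 CPM per kilobase. Each of these 6 genes lay above the next in every control library.

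The cyclooxygenases, Ptges and Hpgds stood below these 6 genes in every control library. Ptges was at 3.43 ± 0.86, Ptgs1 at 2.23 ± 0.97, Hpgds at 1.12 ± 0.39 and Ptgs2 at 0.30 ± 0.12 CPM per kilobase in the controls (SD, n = 3). The order Ptges, Ptgs1, Hpgds, Ptgs2 held within each control library, although the ranges of Ptges and Ptgs1 overlapped between libraries, as did those of Ptgs1 and Hpgds. Of the tested genes with a known length, Ptgs2 lay above 19.2%, Ptgs1 above 42.7% and Ptges above 49.8%. In the Cre group the first 3 places were the same, Tbxas1 stood above Lta4h and Ptgs1 above Ptges by their means.

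**Figure D1:**
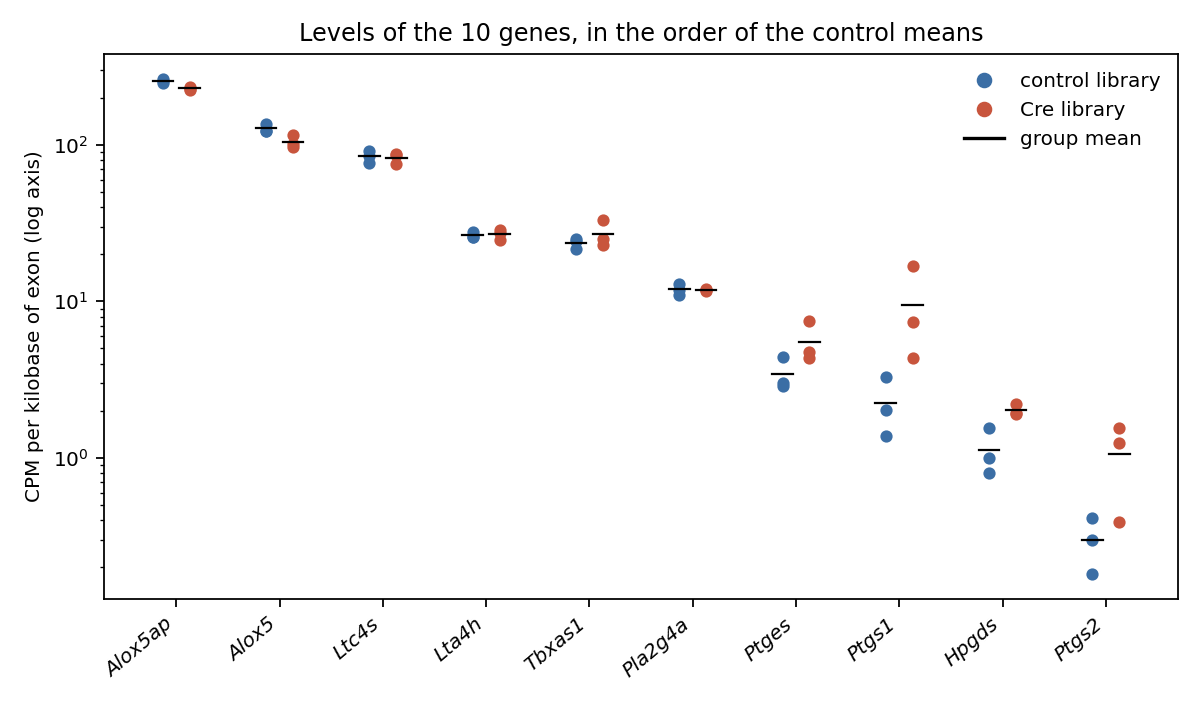
Level of each of the 10 genes in CPM per kilobase of exon (log axis), ordered by the control mean, with 1 point per library and lines at the group means. Alox5ap, Alox5 and Ltc4s stand highest in both groups, and Ptges, Ptgs1, Hpgds and Ptgs2 stand lowest, with higher means in the Cre group.

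The 4 low genes of prostaglandin synthesis had higher means in the Cre group, by 1.61-fold to 4.29-fold, while Alox5 and Alox5ap, the most abundant pair, had lower means, at 0.819 and 0.894 of control. Tbxas1 was at 1.14 of control, and Pla2g4a, Lta4h and Ltc4s were at 0.992, 1.02 and 0.981. None of the 10 passed edgeR at an adjusted p of 0.05, a threshold that 0.0132% of all tested genes passed, 0.0066% on the higher and 0.0066% on the lower side. At an unadjusted p under 0.05 there were 4 genes higher, where 6.54% of all tested genes were, and 2 lower, where 6.28% were. DESeq2 called 4 of the 10 higher, against 2.32% of the genes it tested, and 1 lower, against 1.46%. All 3 Cre libraries lay above all 3 controls for 2 of the 10 genes, against 8.63% of all tested genes, and below them for 2, against 9.22%. The median log2 fold change was 0.11 over the 10 genes and -0.002 over all tested genes, and 6 of the 10 lay above 0 as did 7482 of 15147.

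**Figure D2:**
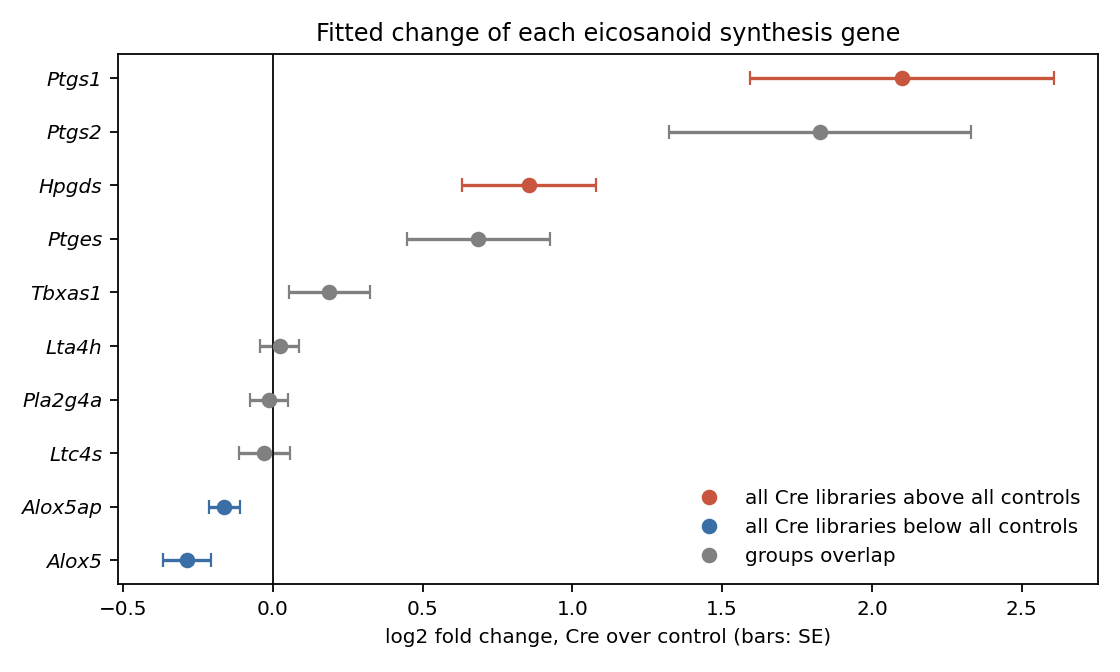
Fitted log2 fold change of each gene, Cre over control, with bars of 1 SE from the edgeR fit, coloured by whether the libraries of the groups overlap. Ptgs1 and Hpgds stand above 0 and Alox5 and Alox5ap below 0 without overlap between groups, and the bars of Lta4h, Pla2g4a and Ltc4s cross 0.

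Pla2g4a, which encodes cytosolic phospholipase A2, had nearly equal means in the groups. Controls had 82.7, 75.7 and 70.4 CPM, and Cre libraries had 75.6, 76.8 and 74.6 CPM. The Cre values fell inside the control range, and the log2 fold change was -0.012 ± 0.064 (SE; adjusted p 0.963, edgeR). Pla2g4a occupies chr1:149829618-149961290 (GRCm38, minus strand), and its start is 138741 bases from that of Ptgs2, which is transcribed away from it. Ptgs2 spread far more between libraries than this neighbour.

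Ptgs1, the cyclooxygenase usually described as constitutive, had the largest fold change of the 10 genes over all 6 libraries, but Ptgs2 exceeded it without Cre library 2 (1.69 against 1.40 on the log2 scale) or without control library 2 (2.13 against 1.84). Controls had 7.89, 5.32 and 12.7 CPM, and Cre libraries had 17.0, 65.4 and 28.7 CPM. Every Cre library was above every control, but Cre library 1 was close to control library 3 and Cre library 2 stood far above the rest. The log2 fold change was 2.10 ± 0.51 (SE; adjusted p 0.171 in edgeR and 0.0489 in DESeq2). Without Cre library 1 it was 2.44, with an adjusted p of 0.0388 in edgeR, and without Cre library 2 it was 1.40, with an adjusted p of 0.27. On leaving out each library in turn it ranged from 1.40 to 2.48. Ptgs1 occupies chr2:36230426-36252272 (plus strand) in 11 exon blocks. An antisense model, Gm43621, shares 148 exonic bases with it and held 0 counts in each control library and 3, 17 and 5 counts in the Cre libraries, highest in the library where Ptgs1 was highest. No source used here states the strand setting of the counting, so reads of the pair cannot be told apart.

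Ptgs2, the inducible cyclooxygenase, was the lowest of the 10 genes, with between 47 and 381 counts per library. It held 1.378, 1.895 and 0.827 CPM in the controls and 1.79, 5.72 and 7.08 CPM in the Cre libraries. Cre library 1 was inside the control range and Cre libraries 2 and 3 were above it, so the groups overlapped. The log2 fold change was 1.83 ± 0.50 (SE; adjusted p 0.2 in edgeR and 0.00217 in DESeq2), and without Cre library 1 it was 2.22 with an adjusted p of 0.018 in edgeR. Without Cre library 3 it was 1.46 (adjusted p 0.417, edgeR) and without control library 3 it was 1.56 (adjusted p 0.289, edgeR). At 47 counts the counting error alone is 14.6% of the value, against a spread of 39.1% between control libraries. Ptgs2 occupies chr1:150100031-150108227 (plus strand), also in 11 exon blocks. Without a filter on low counts edgeR gave adjusted p of 0.00667 for Ptgs1 and 0.0216 for Ptgs2.

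The balance between the cyclooxygenases overlapped between the groups. Per kilobase, Ptgs1 made up 87.1, 76.8 and 94.8% of the cyclooxygenase transcripts in the controls and 91.8, 93.1 and 82.7% in the Cre libraries. The log2 ratio of Ptgs2 to Ptgs1 per kilobase was -2.89 ± 1.23 in the controls and -3.16 ± 0.80 in the Cre group (SD, n = 3 each; difference -0.27, two-sided exact permutation p 0.8, where 0.1 is the smallest that 3 against 3 allows). Leaving out control library 2 turned the difference to 0.31 and leaving out Cre library 2 to 0.020. The isoenzymes were not highest in the same mouse, since Ptgs1 peaked in Cre library 2 and Ptgs2 in Cre library 3.

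Hpgds, the haematopoietic prostaglandin D synthase, varied least across the Cre libraries among the 4 genes with higher means. Controls had 5.13, 6.38 and 9.98 CPM, whereas Cre libraries had 12.4, 14.1 and 12.3 CPM. All Cre libraries were above all controls, with control library 3 nearest to them, and the spread within the Cre group was 8.04% of its mean against 35.1% within the controls. It had a log2 fold change of 0.86 ± 0.22 (SE; adjusted p 0.185 in edgeR and 0.0038 in DESeq2). Without control library 3 it was 1.16, with an adjusted p of 0.0297 in edgeR. Without control library 1 it was 0.66 (adjusted p 0.464, edgeR) and without control library 2 it was 0.78 (adjusted p 0.469, edgeR). Without a filter on low counts the adjusted p was 0.0207. Hpgds occupies chr6:65117293-65144908 (minus strand).

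Ptges, the microsomal prostaglandin E synthase, had the smallest fold change of these 4. It was at 11.8, 11.3 and 17.4 CPM in the controls and 17.0, 29.4 and 18.7 CPM in the Cre libraries. Control library 3 lay above Cre library 1, so the groups overlapped, and Cre library 2 was the highest, as it was for Ptgs1. The log2 fold change was 0.69 ± 0.24 (SE; adjusted p 0.29 in edgeR and 0.0412 in DESeq2). Without Cre library 2 it was 0.40 (adjusted p 0.545, edgeR), and on leaving out each library in turn it ranged from 0.40 to 0.90. Ptges occupies chr2:30889471-30929863 (minus strand), 5300563 bases from Ptgs1 between starts.

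Tbxas1, the thromboxane synthase, was the most abundant gene of the prostanoid branch. Controls had 229, 198 and 220.0 CPM, and Cre libraries had 207, 303 and 227 CPM. Cre library 2 stood alone above the others, and the remaining Cre values fell within the control range. Its log2 fold change was 0.19 ± 0.14 (SE; adjusted p 0.637, edgeR), and without Cre library 2 it was 0.0089. Tbxas1 occupies chr6:38875404-39084585 (plus strand). Cre library 2 thus held the highest value of the 6 libraries for Ptgs1, Ptges, Hpgds and Tbxas1.

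Alox5, which encodes 5-lipoxygenase, had the highest CPM of the 10 genes and a lower mean in the Cre group. It was at 559.7, 505 and 502 CPM in the controls and 471, 396 and 418 CPM in the Cre libraries. Each Cre library lay below each control, with Cre library 1 nearest to the controls. The log2 fold change was -0.29 ± 0.08 (SE; adjusted p 0.206 in edgeR and 0.0272 in DESeq2). Alox5 occupies chr6:116410077-116461178 (minus strand).

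Alox5ap, the 5-lipoxygenase activating protein, had a smaller difference in the same direction. Controls had 374, 354 and 366 CPM, and Cre libraries had 334, 319 and 325 CPM. The groups did not overlap, and the SD was 2.83% of the mean in the controls and 2.37% in the Cre group. Its log2 fold change was -0.16 ± 0.05 (SE; adjusted p 0.264 in edgeR and 0.0857 in DESeq2). Alox5ap occupies chr5:149264767-149288153 (plus strand), and the antisense gene Gm19719 with between 63 and 121 counts shares 189 exonic bases with it.

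For the enzymes that act on leukotriene A4 the groups overlapped. Lta4h, which makes leukotriene B4, was at 168, 157 and 158 CPM in the controls and 173, 167 and 150.4 CPM in the Cre libraries. Its Cre libraries lay on both sides of the control range, with a log2 fold change of 0.023 ± 0.066 (SE; adjusted p 0.929, edgeR). Ltc4s, which makes leukotriene C4, was at 93.2, 77.8 and 85.5 CPM in the controls and 87.0, 88.5 and 76.1 CPM in the Cre libraries. Cre libraries 1 and 2 were inside the control range and Cre library 3 just below it, and the log2 fold change was -0.028 ± 0.084 (SE; adjusted p 0.931, edgeR). Lta4h occupies chr10:93453411-93484875 (plus strand) and Ltc4s chr11:50236461-50238616 (minus strand), where the antisense gene Gm26542, with 156 to 211 counts, shares 268 exonic bases.

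**Figure D3:**
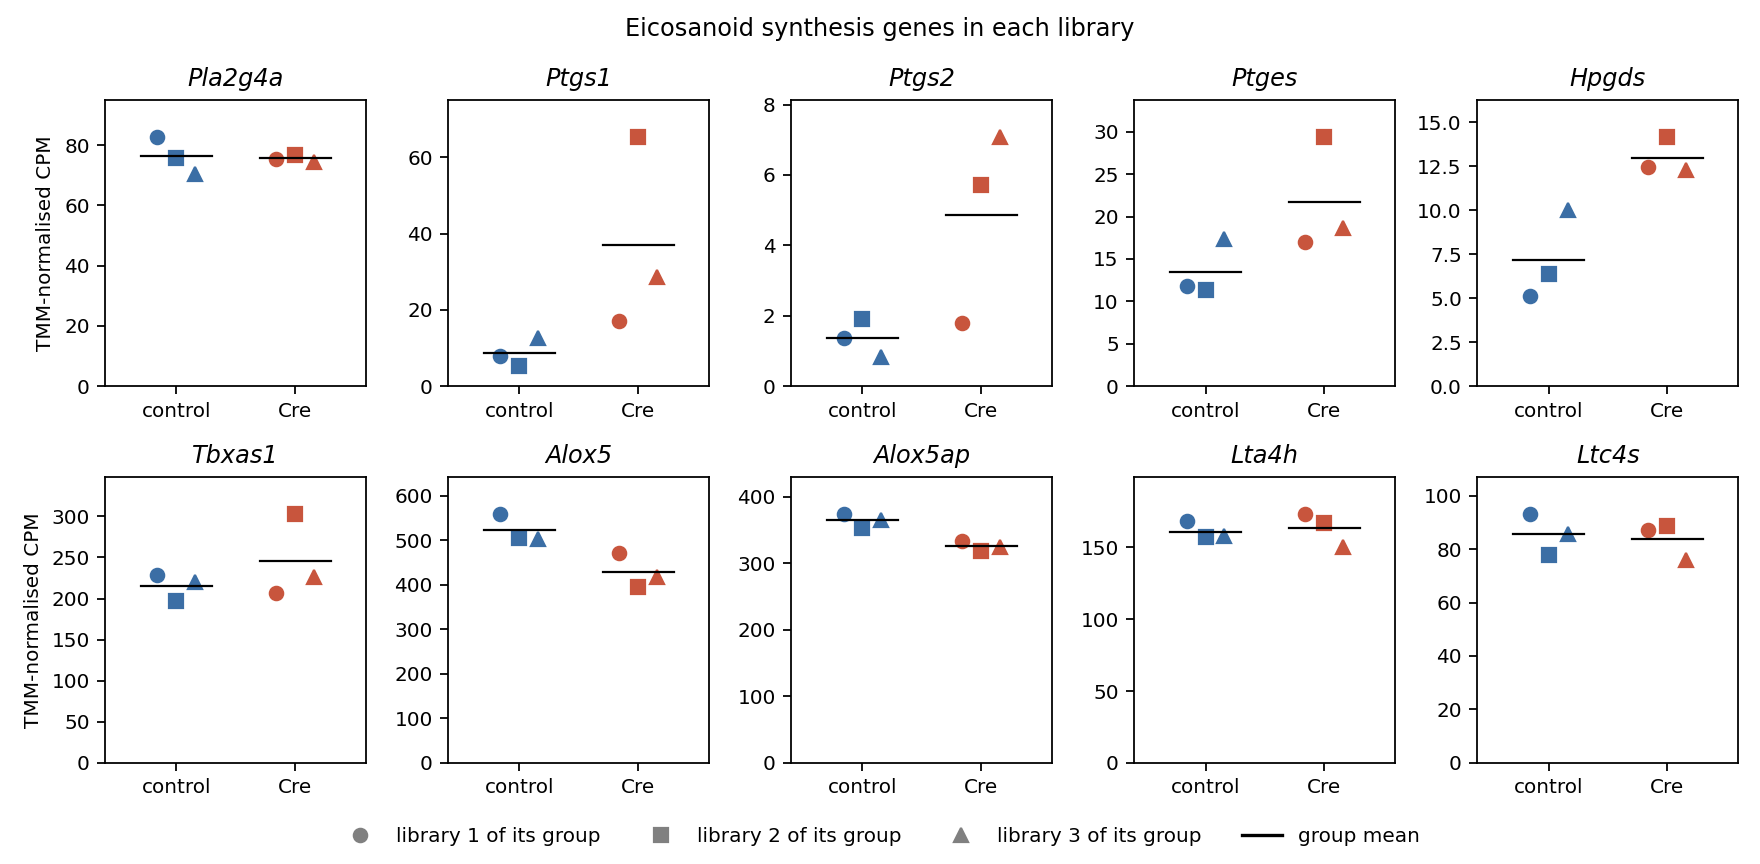
TMM-normalised CPM of each of the 10 genes in every library, with a panel per gene, an axis from 0, symbols for the library number within its group and a line at the group mean. Ptgs1, Ptgs2 and Ptges spread widely within the Cre group, Hpgds does not, and Alox5 and Alox5ap sit slightly lower in all Cre libraries.

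Other genes of the pathway were taken from 7 lists of 110 genes, of which 82 were tested. Of these 42 lay above control and 40 below, and edgeR called 0. At an unadjusted p under 0.05 there were 11 higher and 9 lower, where 6.54% and 6.28% of all tested genes were, and DESeq2 called 7 and 4, against 2.32% and 1.46%. The 3 Cre libraries lay above the controls for 13 and below for 9, against 8.63% and 9.22%. The counts given below for each list stand against these same shares of all tested genes.

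Among 14 tested phospholipases of the A2 type and related lipases an unadjusted p under 0.05 was reached by 3 on the higher side and 0 on the lower, with a median log2 fold change of 0.01. Pla2g2d, a secreted phospholipase A2, was at 0.183, 0.316 and 0.0704 CPM in the controls and 0.761, 7.16 and 10.5 CPM in the Cre libraries. Pla2g7, which inactivates platelet-activating factor, was at 1.743, 2.211 and 1.267 CPM against 3.62, 19.1 and 31.4 CPM. For both genes every Cre library was above the controls, and Cre libraries 2 and 3 exceeded Cre library 1 several-fold. Their adjusted p were 0.146 and 0.149 (edgeR), and DESeq2 called both. The abundant lysosomal phospholipase gene Pla2g15 was at 740 ± 31.3 against 755 ± 36.5 CPM, and Pnpla7 at 385 ± 4.08 against 415 ± 2.205 CPM.

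Genes that store and release arachidonate split by direction, with 4 of 21 on the higher side and 3 on the lower at an unadjusted p under 0.05, and a median log2 fold change of -0.04. The desaturase gene Fads2, which acts on the path to arachidonate, was at 0.765 ± 0.12 against 1.97 ± 0.65 CPM, and the acyl-CoA synthetase gene Acsl3 at 4.32 ± 0.15 against 6.49 ± 1.202 CPM (SD, n = 3). Among the abundant members, Anxa2 was at 1929 ± 121 against 1624 ± 114 CPM and Abhd12 had 834 ± 53.9 against 739.5 ± 43.6 CPM. Lpcat3, which returns arachidonate to phospholipids, and Lpcat2, which makes phosphatidylcholine and platelet-activating factor, were chosen after their values were seen. Lpcat3 was at 165, 161 and 138 CPM in the controls and 137, 115 and 129 CPM in the Cre libraries, and Lpcat2 at 7.89, 8.56 and 9.59 CPM against 11.7, 24.3 and 14.3 CPM. Neither passed edgeR (adjusted p 0.248 and 0.185), although the groups did not overlap for either.

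Among other lipoxygenase and leukotriene genes 2 of 9 tested were lower at an unadjusted p under 0.05, and 0 were higher. Mgst3, a microsomal glutathione transferase related to Ltc4s, was at 103, 94.9 and 67.3 CPM in the controls and 47.2, 44.9 and 44.1 CPM in the Cre libraries, with an adjusted p of 0.146 in edgeR and 7.47e-09 in DESeq2. Aloxe3, an epidermal-type lipoxygenase, was at 22.7 ± 2.30 against 16.3 ± 3.03 CPM. These were the 2 lower genes, and DESeq2 called both. The most abundant of the list were Cotl1, at 898 ± 107 against 932 ± 38.8 CPM, and Mgst1, with 227 ± 16.7 against 238 ± 19.6 CPM. Alox15, the 12/15-lipoxygenase that marks peritoneal macrophages and eosinophils, did not pass the filter on low counts, with 1, 0 and 1 counts in the controls and 3, 11 and 113 in the Cre libraries.

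Of 8 other prostanoid synthase genes 1 was lower at an unadjusted p under 0.05 and 0 higher: Akr1b3, an aldo-keto reductase able to make prostaglandin F2, at 169 ± 9.77 against 150.0 ± 3.60 CPM. Ptges3, a co-chaperone also described as a prostaglandin E synthase, was at 75.5 ± 2.99 against 80.5 ± 3.57 CPM. Inactivating enzymes and transporters had 1 of 14 higher, Ptgr1 at 26.8 ± 0.76 against 30.1 ± 2.36 CPM, and 1 lower, the exporter gene Abcc4 at 41.5 ± 4.38 against 35.2 ± 3.17 CPM. Among the abundant members, Cyp4v3 was at 140.2 ± 8.67 against 147 ± 7.38 CPM and Cyp4f16 had 139 ± 8.65 against 130.3 ± 5.67 CPM. Cyp2s1 was the only tested gene of the epoxygenase list and was at 1.61 ± 0.33 against 0.811 ± 0.17 CPM. None of these genes passed edgeR over all genes.

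Of 15 tested receptor genes 12 lay above control, with an unadjusted p under 0.05 for 3 on the higher side and 1 on the lower, and a median log2 fold change of 0.11. Gpr132, a receptor for oxidised fatty acids, was at 2.12, 2.11 and 2.04 CPM in the controls and 3.19, 3.59 and 3.38 CPM in the Cre libraries, so the groups did not overlap, with adjusted p of 0.146 (edgeR). Cmklr1, the chemerin receptor, also described as a resolvin receptor, was at 0.299, 0.183 and 0.458 CPM against 0.541, 4.29 and 6.87 CPM. The most abundant of the list were Fpr1, at 290 ± 25.2 against 310 ± 19.5 CPM, and Pparg, with 267 ± 14.0 against 256 ± 3.70 CPM. Ptgir, the prostacyclin receptor, and Ptger4, a receptor for prostaglandin E2, were chosen after their values were seen. Ptgir was at 19.5, 17.6 and 21.4 CPM in the controls and 23.7, 76.6 and 52.8 CPM in the Cre libraries. It was highest in Cre library 2, as Ptgs1 was, whereas Ptgs2 was highest in Cre library 3. Ptger4 was at 65.7, 61.7 and 53.2 CPM against 44.0, 52.5 and 41.4 CPM, lower in each Cre library than in any control. Their adjusted p were 0.185 and 0.198 (edgeR), so neither passed.

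**Figure D4:**
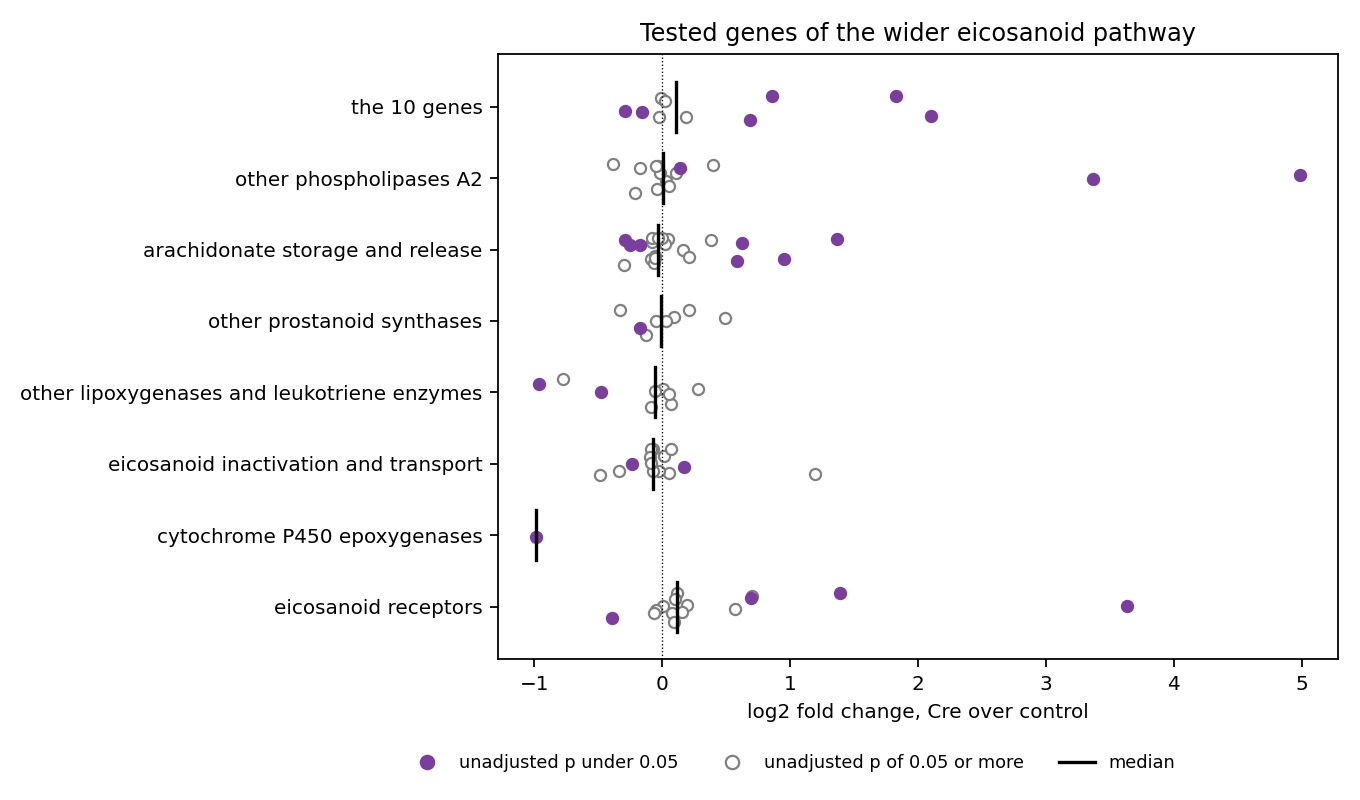
Fitted log2 fold change, Cre over control, of each tested gene of the 10 and of the 7 other pathway lists, with filled points for an unadjusted p under 0.05 and a line at each list's median. Most genes lie near 0, and the largest positive values are those of Pla2g2d, Cmklr1 and Pla2g7.

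Markers of other cell types were read in the same libraries, because fewer cells of a type and less RNA per cell cannot be told apart in bulk RNA. Of 16 interstitial macrophage markers 10 had an unadjusted p under 0.05 (edgeR) on the higher side and 2 on the lower. Of all tested genes 6.54% and 6.28% did. The list summed to 541 to 780 CPM in the controls and 566 to 1690 CPM in the Cre libraries. Mmp12 held 4.84 to 7.97 CPM against 23.9, 111 and 566 CPM, and Apoe 87.4 to 106 CPM against 97.4, 250 and 505 CPM. By fold change 12 markers lay above control and 4 below. Cd163 was lower in every Cre library, at 0.651 to 1.30 CPM against 0.201 to 0.423 CPM. H2-Eb1 was at 24.7 to 200 CPM against 25.2 to 49.8 CPM. Within that list C1qa, a complement chain, was at 0.68 to 1.01 CPM in the controls and at 1.88, 12.4 and 18.2 CPM in the Cre libraries. Ptgs2, Pla2g2d and Pla2g7 stood in the same order as C1qa across the Cre libraries, whereas Ptgs1, Ptges and Hpgds were highest in Cre library 2. Of the interstitial macrophage markers Trem2, at 52.8, 101 and 77.8 CPM, and Csf1r, at 344, 463 and 394 CPM, were also highest there. Cx3cr1 was as well, at 1.13, 1.89 and 1.30 CPM. Mmp12 and Apoe rose in the order of C1qa. Cd163, at 0.423, 0.201 and 0.297 CPM in the Cre libraries, and Lyve1, at 1.84, 0.496 and 0.724 CPM, did not stand in that order. The part of these markers in the differences of the eicosanoid genes was not tested. Markers of mast cells and basophils, which make prostaglandin D2, summed to 2.24 to 3.29 CPM in the controls and 2.84 to 4.09 CPM in the Cre libraries. Mcpt8, Tpsab1 and Mrgprb2 were at 0 in all libraries, and Cpa3 was at 12, 15 and 6 counts in the controls against 5, 6 and 6. Of the 3 tested genes of that list Hdc, which makes histamine, was above the controls in every Cre library, at 1.03, 1.43 and 1.54 CPM against 0.598, 0.865 and 0.598 CPM (unadjusted p 0.00648, adjusted p 0.194, edgeR). For the others the groups overlapped. Gata2 was at 0.930, 1.13 and 0.704 CPM in the controls and 1.01, 0.589 and 0.632 CPM in the Cre libraries. Kit was at 0.880, 0.964 and 0.792 CPM in the controls and 1.88, 0.713 and 1.02 CPM in the Cre libraries. Platelet markers, of a cell rich in Ptgs1 and Tbxas1, summed to 15.1 to 49.2 CPM against 10.3 to 18.2 CPM, with Ppbp at no more than 3 counts and Clec1b at 9.31 to 44.9 CPM against 6.09 to 8.71 CPM. The 10 platelet markers other than Clec1b summed to 4.30 to 6.10 CPM against 4.18 to 9.51 CPM, and Pf4 was at 1.36, 0.931 and 0.37 CPM in the controls and 0.575, 1.64 and 4.29 CPM in the Cre libraries. Neutrophil markers summed to 86.3 to 95.9 CPM against 102 to 111 CPM, with 2 of 8 tested higher at an unadjusted p under 0.05 and Ly6g at 0 in all libraries.

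The genes most correlated with Ptgs1 over the 6 libraries, among 8362 with a mean of at least 10 CPM, were Polr1c, Kpna4, Aacs, E230016K23Rik and Trim12c. Their Pearson correlations of log2 CPM were between 0.993 and 0.997. Their levels varied far less than that of Ptgs1, which ran from 5.32 to 65.4 CPM. Polr1c ran from 24.7 to 29.0, Kpna4 from 141 to 185 and Aacs from 35.4 to 52.9 CPM. E230016K23Rik ran from 6.20 to 17.2 and Trim12c from 21.1 to 26.6 CPM. The 6 points share their group split and their libraries, so this is a description of these libraries only.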

How the data were processed

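Polyadenylated RNA of sorted alveolar macrophages from 6 mice was sequenced, 1 library per mouse. The authors deposited raw counts, whole numbers for each gene. Tools named in the submitters' processing notes include STAR 2.6.1 and featureCounts 1.6.4, with the build GRCm38 and no roles. No source used here gives the annotation release or the strand setting.

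Columns were assigned through library names. All genes were tested with edgeR 4.0.16 (R 4.3.3): filterByExpr (minimum count 10), TMM, estimateDisp, glmQLFit with defaults, glmQLFTest, two-sided, Benjamini-Hochberg over 15147 genes, threshold 0.05. SE is the absolute log2 fold change over the square root of F. Other settings tried were no filter, scaling by RLE, by upper quartile or by library size alone, limma-voom 3.58.1, DESeq2 1.42.0, a filter of 5 CPM in 3 libraries, robust and newer glmQLFit settings, a replicate block and leaving out each library. Exonic lengths and coordinates came from GENCODE M21 (GRCm38), matching 15094 tested genes. The code was tested on simulated data, where 17 of 188 edgeR calls and 47 of 226 DESeq2 calls were false at an adjusted p under 0.05. Replicates differed from each other by more than sampling noise. Counting intervals and errors cover counting error only.

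The members and lists were chosen with earlier results of these data known. Named were the 10 members and Car4, and from each other list the members past the threshold or, with fewer than 2, the 2 of smallest p and the 2 most abundant. For the member of smallest p the 5 genes of highest correlation were also named. Ptgir, Ptger4, Lpcat2 and Lpcat3 were chosen after their values were seen. Alox15 and single genes of the marker lists were also named outside this rule. The other cell type lists were markers of monocytes, dendritic cells, lymphocytes, eosinophils, epithelium, and endothelium and fibroblasts, given in the closing section.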

Additional observations from a re-analysis of the deposited data

How the results depend on the processing

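The 10 genes gave 159 fold changes over the 16 alternatives, of which 144 kept their direction and their side of the threshold and 11 passed it only under the alternative. The calls higher among the 10 genes numbered 0, against 3 without a filter on low counts (Ptgs1, Ptgs2 and Hpgds), 4 by DESeq2 (these and Ptges) and 0 to 2 on leaving out a library, with 2 (Ptgs1 and Ptgs2) without Cre replicate 1 and 1 (Hpgds) without control replicate 3. The calls lower numbered 0, against 1 by DESeq2 (Alox5). Over all genes edgeR called 1 higher and 1 lower, against 340 and 183 without a filter, 344 and 217 by DESeq2, 0 lower with robust dispersions, and 1 to 249 higher and 0 to 52 lower on leaving out a library (249 and 37 without Cre replicate 1, 15 and 52 without control replicate 3, 8 higher without Cre replicate 2, 0 lower without control replicate 2). No source used here states that equal replicate numbers share a litter or day. The correlations of their deviations from the group means were -0.03, -0.19 and 0.04, and those of unlike numbers ranged from -0.21 to 0.25. Not every sample correlated best with its own number. With 3 libraries per group these correlations cannot exclude a pairing. With the replicate number as a block 8 genes were called higher and 2 lower, and 0 of the 10. On leaving out a library the log2 fold changes near 0 turned sign: Pla2g4a ranged from -0.071 to 0.050, Lta4h from -0.027 to 0.080, Ltc4s from -0.093 to 0.038, Pla2g15 from -0.012 to 0.056, Cotl1 from -0.037 to 0.13 and Mgst1 from -0.0043 to 0.12. The difference in the log2 ratio of Ptgs2 to Ptgs1 ranged from -0.92 to 0.31. Ptgs2 was not tested under the filter of 5 CPM in 3 libraries. The causes of these shifts were not tested.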

Other observations

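Other marker lists gave these summed levels, controls first: monocytes 725 to 848 against 594 to 704 CPM, dendritic cells 47.2 to 56.6 against 49.6 to 60.8 CPM, and lymphocytes 19.8 to 37.4 against 19.7 to 77.4 CPM. Epithelial markers summed to 266 to 351 against 237 to 301 CPM, endothelial and fibroblast markers to 25.8 to 39.1 against 23.3 to 48.3 CPM and eosinophil markers to 0.0498 to 0.15 against 0.101 to 2.23 CPM. Nr4a1 alone made up 520.04 to 657 against 412 to 505 CPM of the monocyte sum, and the other 8 monocyte markers summed to 191 to 205 against 182 to 199 CPM. Of the epithelial markers Cdh1 was at 105 to 118 against 133 to 156 CPM, and the other 11 summed to 149 to 246 against 97.0 to 168 CPM. Alox15, which is on the eosinophil list, held 2.10 CPM in Cre library 3 and at most 0.17 CPM in the other 5 libraries.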
